A study of Mus musculus with 6 samples.

Results

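The AP-1 transcription factors were described here by 8 genes chosen by name, Fos, Fosb, Fosl1 and Fosl2 of the Fos family, Jun, Junb and Jund of the Jun family, and Atf3 of the ATF family. All 8 were found among the 55376 genes of the count table, and all 8 were among the 18054 genes with enough counts to be tested. RNA was measured in 6 libraries of muscle stem cells from C57BL/6 mice aged 3 months, isolated by fluorescence-activated cell sorting, with SMART-seq2, which copies whole messages from very little RNA. In RNA immunoprecipitation (RIP) an antibody pulls down a protein with the RNA bound to it. The 3 groups of 2 libraries were RIP with an antibody to CPEB4, RIP with a nonspecific IgG, and the input RNA. No genotype or treatment is given in the labels, so the groups differ in how the RNA was recovered from sorted cells of 1 kind. The CPEB4 RIP libraries are given as biological replicates, but no animal or preparation is named for any library, and the p-values here cover the spread between these libraries alone, part of which may be technical. No undissociated muscle was analysed here, so whether the isolation itself raised these genes was not tested.

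AP-1 is a dimer of basic leucine zipper proteins. Fos proteins need a Jun partner, whereas Jun proteins can also pair with each other, and the dimer binds the AP-1 element and the related cyclic AMP response element in promoters and enhancers. Most of these genes are immediate early genes, switched on within minutes of growth signals, stress or wounding without new protein synthesis, and their messages are short-lived. In muscle stem cells they are known for a rapid rise when the tissue is injured or taken apart. CPEB4 belongs to the CPEB family, which binds the cytoplasmic polyadenylation element of messages and regulates their translation.

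The promoters are shown because several members share a core of the cyclic AMP response element. RefSeq's promoter table (GRCm38.p6, the mm10 assembly) matched 7 of the 8 members, all but Fosl1, with windows of 300 bases. The motif TGACG, searched on both strands as were the others, stood in 4 of the 7 windows, against 20.8% of all 32851 windows in the table. The variant TGACATCA of the AP-1 element was found only in the Jun window among the members, against 3.62% of all windows. The AP-1 element TGACTCA was found in 0 of the 7 member windows, against 5.2% of all windows. A match describes the letters only, and binding was not measured here. The stretches below are 60 bases each on the strand of the gene, taken before its annotated start, with the match in capitals (for Atf3 the match is on the opposite strand). The stretches lie at chr12:85473797-85473856 (Fos, plus strand), chr7:19310073-19310132 (Fosb, minus), chr4:95052234-95052293 (Jun, minus), chr8:84978822-84978881 (Junb, minus) and chr1:191183334-191183393 (Atf3, minus). The Fos window holds another TGACG, farther from the start, that is not shown.
Fos: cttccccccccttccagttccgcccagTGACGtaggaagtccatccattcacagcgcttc
Fosb: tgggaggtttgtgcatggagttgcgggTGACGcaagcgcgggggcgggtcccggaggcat
Jun: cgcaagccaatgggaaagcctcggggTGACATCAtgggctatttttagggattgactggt
Junb: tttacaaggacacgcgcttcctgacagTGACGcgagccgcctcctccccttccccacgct
Atf3: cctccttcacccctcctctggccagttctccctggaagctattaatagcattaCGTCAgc

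Assigned counts were 9018323 to 20843042 per library, and counts of single members ran from 263 (Jund, input replicate 2) to 37763 (Fos, input replicate 1). The IgG RIP libraries were farther apart (Pearson r of 0.873 for log CPM, counts scaled to library size, across 18054 genes) than those of CPEB4 RIP (0.981) or input (0.975). The stem cell label was checked against its markers. The surface proteoglycan Sdc4 stood at 41600 to 61960 CPM in the 6 libraries. The myogenic factors Myf5 and Myod1 stood at 1172 to 4794 and 750.5 to 1025, and the stem cell factor Pax7 at 151 to 290. Lower in the same list were Itga7 (46.45 to 85.5) and Cdh15 (43.25 to 84.55). The leukocyte antigen Ptprc did not exceed 10.2, but Cd74 of its list reached 48.55. In every library Rgs5 of the pericyte list (355 to 747) and Col3a1 of the fibro-adipogenic list (345 to 809) stood above Pax7. Of the 12 stem cell markers 0 were higher and 1 was lower over IgG RIP, the adhesion molecule gene Vcam1 (-0.87, adjusted p = 0.0117). Markers of other cell types were present at lower sums, though Sdc4 made up most of the stem cell sum. They moved in part with CPEB4 RIP over IgG RIP, as measured with edgeR's quasi-likelihood test. Of all genes tested, 4.79% were higher and 3.42% lower in that comparison. Sums are over all listed genes, tested or not. Of 6 erythroid genes tested 3 were higher, with the hemoglobin gene Hba-a1 at a log2 fold change of 2.06, and the summed level was 328 to 658 CPM for CPEB4 RIP, 89.0 to 147 for IgG RIP and 109 to 180 for input. Of 11 myofibre genes tested 4 were higher, at 243 to 305, 139 to 182 and 149 to 208.5 CPM in the same order. Fibro-adipogenic markers had 2 of 10 higher (1617 to 2011, 1130 to 1419 and 819 to 962.5 CPM), leukocyte markers 1 of 11 (122 to 122.5, 53.6 to 90.5 and 47.3 to 70.0) and endothelial markers 1 of 10 (410.4 to 599, 322 to 430 and 346 to 376). None of the 8 pericyte markers passed (593 to 800, 661 to 1060 and 626 to 785 CPM), and no gene of these 6 lists was called lower. No marker was at 0 in all libraries. Counts on olfactory receptor genes, whose products serve smell, were 76.7 to 127 CPM in the CPEB4 RIP libraries, 188 to 597 with IgG and 418 to 510 for input. The part of these markers and reads in the results on AP-1 genes was not tested.

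The level of each member was read from the deposited FPKM values, which are scaled per length and so can be compared between genes. Fos stood at 632 and 516 FPKM in input, 651 and 622 in IgG RIP and 422 and 398 in CPEB4 RIP. It was the highest member in each of the 6 libraries, above 99.8% of the tested genes in input and 99.5% in CPEB4 RIP. Atf3, a stress-induced factor that can dimerise with Jun proteins, stood at 79.4 and 71.5 FPKM in input, 110 and 100.6 in IgG RIP and 125 and 104.0 in CPEB4 RIP. Junb, a Jun protein that can oppose Jun at many targets, stood at 73.5 and 44.8 FPKM in input, 116 and 151 in IgG RIP and 111 and 96.2 in CPEB4 RIP. Atf3 and Junb were the next members in each library, and their values overlapped in input and in CPEB4 RIP. In input the order went on with Fosl1 (33.5 ± 0.277 FPKM, SD, n = 2), Jun (27.4 ± 9.18), Fosl2 (16.5 ± 1.54), Fosb (14.4 ± 1.80) and Jund (10.7 ± 2.71). The values of the libraries overlapped for the neighbours Fosl1 and Jun and for Fosl2 and Fosb, and the SD ranges of Fosb and Jund overlapped as well.

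Jund changed its place in the order. It was the lowest member in both input libraries, at 12.6 and 8.75 FPKM, the lowest in IgG RIP replicate 1 (12.3), and the sixth member in IgG RIP replicate 2 (21.0). In CPEB4 RIP it was the fourth, at 58.9 and 51.6 FPKM, above Jun, Fosb, Fosl1 and Fosl2 in both libraries. The ratio of Jund to Jun in FPKM was 1.85 and 2.22 in CPEB4 RIP, against 0.419 and 0.524 with IgG and 0.371 and 0.418 for input. Among the FPKM of the 8 genes Jund held 7.13% and 6.94% in CPEB4 RIP and between 1.21% and 2.08% in the other 4 libraries, while Fos held 51.0% and 53.5% in CPEB4 RIP and 61.5% to 71.1% elsewhere. FPKM depends on the gene model used, and the deposited values put the Jund model at 0.52 of the length of the Jun model, where RefSeq's gene spans stand at 0.9.

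**Figure D1:**
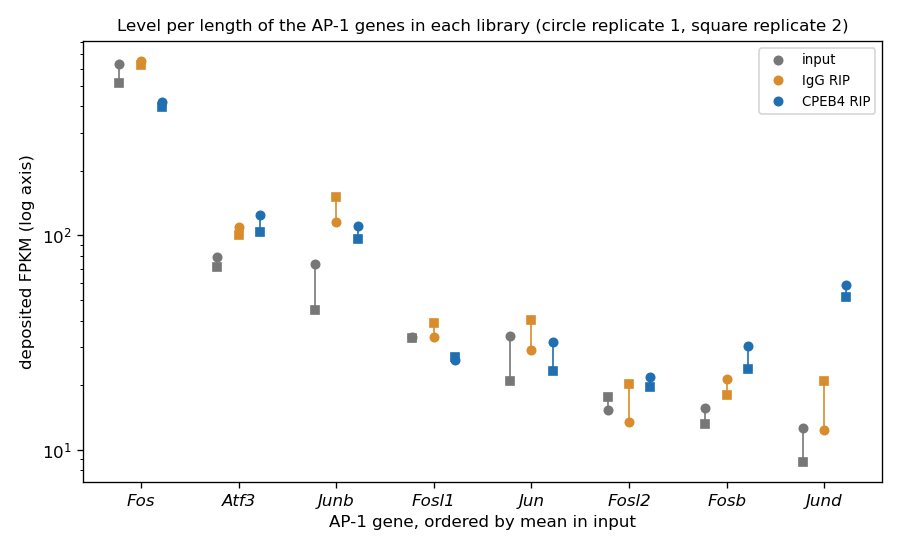
Deposited FPKM on a log axis for the 8 AP-1 genes, ordered by their mean in input, with 2 libraries for each of input, IgG RIP and CPEB4 RIP joined by a line. Fos is the highest gene in every library, and Jund moves from 8.75 to 21.0 in input and IgG RIP to 51.6 and 58.9 in CPEB4 RIP.

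Setting CPEB4 RIP against IgG RIP, as the study was designed to do, asks what the CPEB4 antibody pulled down beyond a nonspecific one. Of the 8 AP-1 messages 1 was higher, Jund, 1 was lower, Fos, and 6 did not pass edgeR's quasi-likelihood test at the threshold of 0.05 for the adjusted p. Over all genes tested 8.21% passed in this comparison, 4.79% higher and 3.42% lower. The median log2 fold change of the members was -0.20, beside -0.07 for all genes tested. The libraries of the groups did not overlap for 6 of the members (2 above IgG and 4 below), a state that held for 54.9% of all genes tested (29.4% above and 25.5% below). In these bulk libraries a level is a share of the RNA recovered, and fewer cells of a type and less RNA per cell cannot be told apart.

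Jund encodes the Jun protein that is made most steadily and responds least to growth signals (chromosome 8, 70697739 to 70700616, RefSeq gene span on GRCm38, as for the genes after it). Its normalised level was 134.5 and 121 CPM in the CPEB4 RIP libraries, 31.1 and 50.5 in those of IgG RIP and 29.0 and 20.5 in those of input. Both CPEB4 RIP libraries lay above all other libraries, with no overlap. The log2 fold change over IgG RIP was 1.64 (SE 0.28, adjusted p = 0.0174, edgeR), a 3.12-fold difference with group means of 127.8 ± 9.40 and 40.8 ± 13.7 CPM (SD, n = 2 each). It remained above 0 under all 17 alternatives tried, from 1.40 to 2.17. Where no single replicate was left out, adjusted p ran from 1.74e-09 to 0.108. The call was lost with an offset for gene length (1.40, adjusted p = 0.108), without CPEB4 RIP replicate 1 (1.78) and without CPEB4 RIP replicate 2 (1.76). The IgG RIP libraries, which stood apart from each other, were also left out in turn. Jund then stood at 1.52 without replicate 1 and 2.17 without replicate 2.

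Fos encodes the founding member of its family, the partner of Jun in the classical dimer (chromosome 12, 85473890 to 85477274). It stood at 1358 and 1318 CPM in the CPEB4 RIP libraries, 2322 and 2108 in those of IgG RIP and 2054 and 1707 in those of input. The CPEB4 RIP libraries were the lowest of the 6 and close to each other. Fos fell by 0.73 on the log2 scale against IgG RIP (SE 0.14, adjusted p = 0.0243, edgeR), with group means of 1338 ± 28.2 and 2215 ± 152 CPM (SD, n = 2 each). The fold change kept its sign under the 17 alternatives, from -0.87 to -0.48. Where no single replicate was left out, adjusted p ran from 7.44e-05 to 0.122. The Fos call was lost with an offset for gene length (-0.87, adjusted p = 0.122) and in limma on log2(FPKM + 0.1) (-0.64, 0.056). It was also lost without CPEB4 RIP replicate 1 (-0.54), CPEB4 RIP replicate 2 (-0.65), input replicate 1 (-0.60) or input replicate 2 (-0.59). Without IgG RIP replicate 1 Fos stood at -0.48 and without replicate 2 at -0.66.

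**Figure D2:**
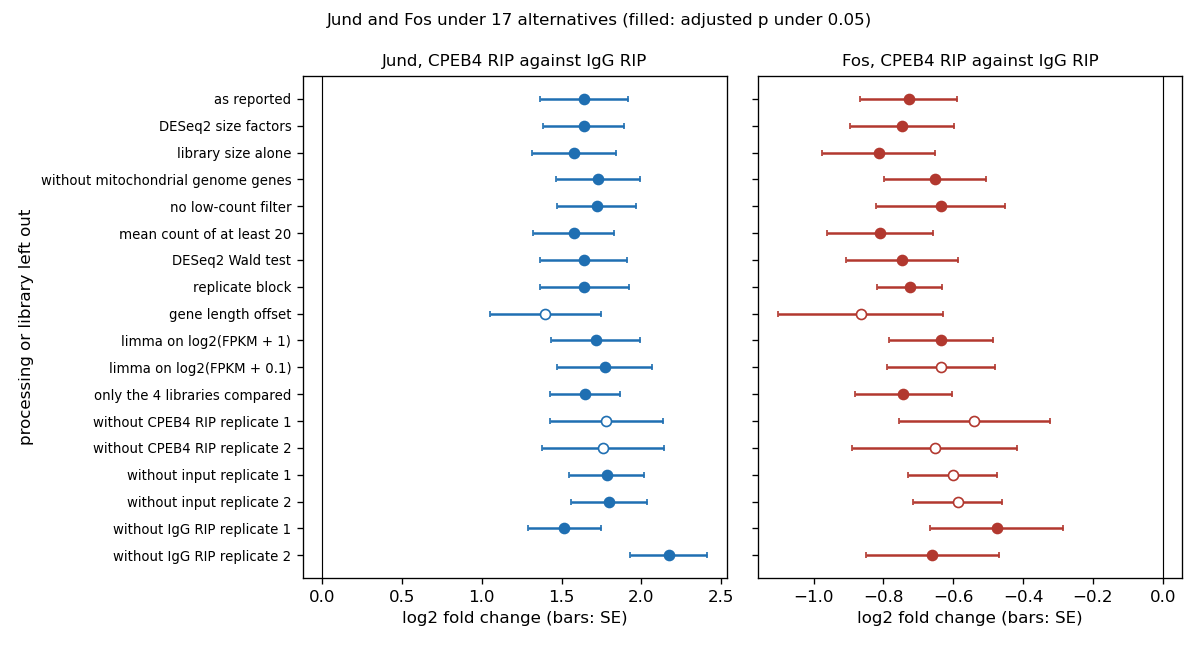
Fitted log2 fold change of Jund (left) and Fos (right) in CPEB4 RIP against IgG RIP as reported and under 17 alternatives, with SE as bars and filled points for an adjusted p under 0.05. Jund lies between 1.40 and 2.17 and Fos between -0.87 and -0.48, and open points show where the call was lost.

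The other Jun genes, Jun and Junb, did not pass over IgG RIP. Jun (chromosome 4, 95049036 to 95052222), which can form AP-1 with itself or with a Fos protein, stood at 139 and 104 CPM in the CPEB4 RIP libraries, 142 and 184 in those of IgG RIP and 149 and 93.9 in those of input. Both CPEB4 RIP libraries were below both IgG RIP libraries and within the range of input. Its log2 fold change over IgG RIP was -0.43 (SE 0.26, adjusted p = 0.337). Junb (chromosome 8, 84976909 to 84978748) stood at 348.5 and 312 CPM in the CPEB4 RIP libraries, 404 and 500.3 in those of IgG RIP and 234 and 145 in those of input. CPEB4 RIP lay between the other groups without overlap. The value over IgG RIP was -0.45 (SE 0.24, adjusted p = 0.263), so the test did not separate the groups. The difference between Jund and its relatives was not tested.

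Among the other Fos genes, Fosb and Fosl2 had fitted levels above IgG RIP and Fosl1 below, and none passed. Fosb (chromosome 7, 19302696 to 19310118), known also for a long-lived short splice form in brain, stood at 259 and 210.1 CPM in the CPEB4 RIP libraries, 203 and 163 in those of IgG RIP and 135 and 115.5 in those of input. The libraries lay in the order input, IgG RIP, CPEB4 RIP with no overlap. Its log2 fold change was 0.36 (SE 0.19, adjusted p = 0.258). Without IgG RIP replicate 1 it stood at 0.71, in a fit with a lone IgG RIP library where far more of all genes passed. Fosl1 (chromosome 19, 5447698 to 5455938), which lacks the strong activation domain of Fos, stood at 73.1 and 77.9 CPM in the CPEB4 RIP libraries, 103 and 114 in those of IgG RIP and 94.6 and 95.2 in those of input. The CPEB4 RIP libraries were the lowest of the 6, as for Fos. The value was -0.52 (SE 0.15, adjusted p = 0.0784), and it passed with library size alone, with a mean count of at least 20 and in the DESeq2 Wald test. Fosl1 overlaps Ccdc85b by 2776 bases in RefSeq, and whether counting used the strand is not known here, so reads in the overlap are uncertain.

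Fosl2 (chromosome 5, 32136472 to 32157840), the other Fos relative without a strong activation domain, stood at 289 and 266 CPM in the CPEB4 RIP libraries, 197 and 283 in those of IgG RIP and 206 and 239 in those of input. CPEB4 RIP lay within or just above the spread of IgG RIP. The log2 fold change was 0.21 (SE 0.20, adjusted p = 0.531). Without IgG RIP replicate 2 it stood at 0.63, again in a fit where far more of all genes passed. Atf3 (chromosome 1, 191170296 to 191183333) stood at 368 and 315 CPM in the CPEB4 RIP libraries, 358 and 312 in those of IgG RIP and 236 and 217 in those of input. The groups of antibody libraries overlapped, and both lay above input. Its value over IgG RIP was 0.03 (SE 0.15, adjusted p = 0.927), with a sign that changed under 3 of the alternatives.

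**Figure D3:**
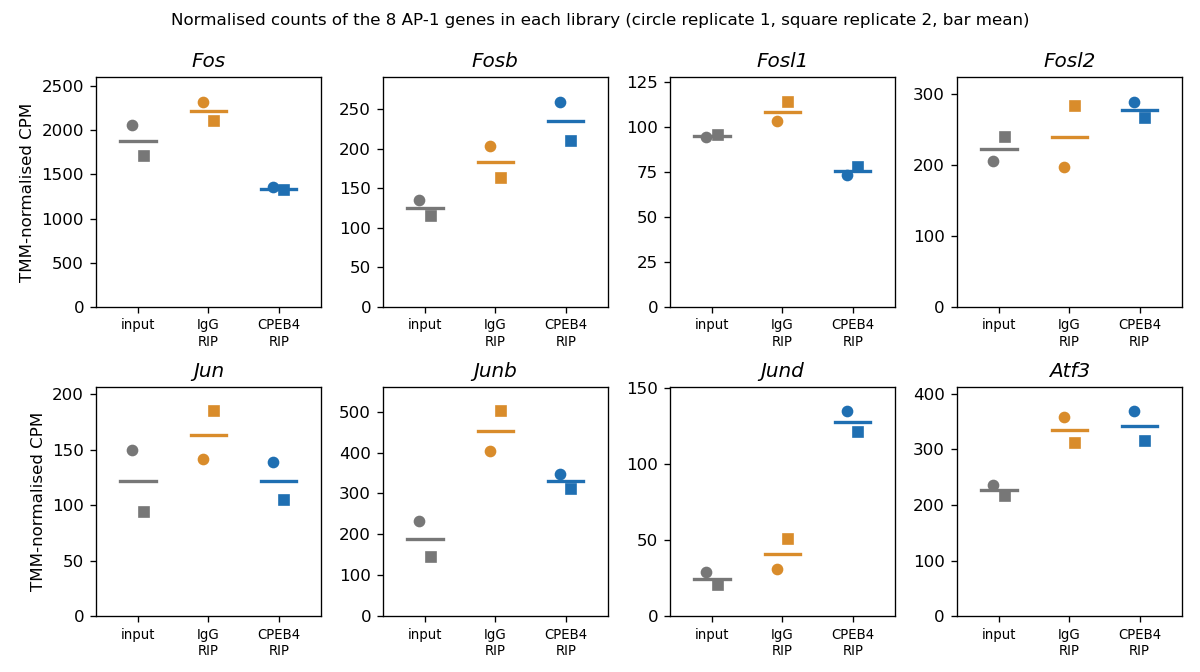
TMM-normalised CPM of each AP-1 gene in the 6 libraries, with a circle for replicate 1, a square for replicate 2 and a bar for the group mean (y axes start at 0). Jund is high in CPEB4 RIP alone (121 and 134.5), Fos and Fosl1 are lowest in CPEB4 RIP, and Junb and Atf3 are above input in both kinds of antibody library.

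Against input, the comparison asks how the recovered RNA differs from the total RNA of the cells. Of the 8 members 3 were higher, Jund, Fosb and Atf3, 0 were lower and 5 did not pass in edgeR's quasi-likelihood test, where 12.7% of all genes tested passed (8.0% higher and 4.70% lower). Which members passed depended on scaling and filter, while the signs of all members but Jun held under the 17 alternatives. With library size alone 1 member was higher (Jund) and 2 were lower (Fos and Fosl1), beside 1093 and 1409 of 18054 genes. With a mean count of at least 20 there were 2 higher and 2 lower, beside 1395 and 1401 of 13216 genes. The median of the members was 0.46, beside -0.06 for all genes tested, and the libraries did not overlap for 7 members, a state that held for 72.1% of all genes. Of the 7, 5 lay above input (34.4% of all genes) and 2 below (37.6%), Fos and Fosl1. This comparison shares the CPEB4 RIP libraries with the previous one. Jund, at 24.8 ± 5.98 CPM in input (SD, n = 2), was 5.15-fold higher with CPEB4 RIP, or 2.36 on the log2 scale (SE 0.28, adjusted p = 0.00364). It passed under all 17 alternatives tried (2.14 to 2.65, adjusted p from 2.53e-19 to 0.0429). Fosb rose from 125.4 ± 14.0 to 234.8 ± 34.8 CPM, at 0.90 (SE 0.19, adjusted p = 0.021), and Atf3 from 226.6 ± 13.8 to 341.9 ± 37.4 CPM, at 0.59 (SE 0.15, adjusted p = 0.0459). Fosb lost its call with library size alone (0.69, adjusted p = 0.0785) and without CPEB4 RIP replicate 1 (0.131), CPEB4 RIP replicate 2 (0.103), input replicate 1 (0.0887) or input replicate 2 (0.153). Atf3 lost its call with DESeq2 size factors (0.0676), library size alone (0.203), a mean count of at least 20 (0.0907), the offset for gene length (0.128), limma on FPKM with either pseudocount (0.0508 and 0.0549), and without CPEB4 RIP replicate 1 (0.25), CPEB4 RIP replicate 2 (0.203), input replicate 1 (0.156) or input replicate 2 (0.244).

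The remaining members did not pass against input. Junb was at 0.80 (SE 0.24, adjusted p = 0.0686), Fos at -0.49 (SE 0.14, 0.0595), Fosl1 at -0.33 (SE 0.15, 0.208), Fosl2 at 0.32 (SE 0.20, 0.335) and Jun at -0.00 (SE 0.26, 0.993). Fos was called lower with library size alone (-0.71, adjusted p = 0.0267) and with a mean count of at least 20 (-0.64, 0.0227), and so was Fosl1 (-0.55, 0.0341, and -0.48, 0.0435). Junb and Fos were near the threshold. Each passed in the DESeq2 Wald test and in an edgeR fit on the 4 libraries compared (adjusted p of 0.00643 and 0.00701 for Junb, and 0.00426 and 0.0126 for Fos). In edgeR Junb did not pass with library size alone (0.57, adjusted p = 0.176) or the length offset (0.92, 0.151). Nor did Fos with no low-count filter (-0.38, 0.304) or the length offset (-0.36, 0.394). With a library left out in turn, Junb ranged from 0.51 to 1.20 and Fos from -0.60 to -0.33. Summed over the 8 genes, AP-1 messages made up 0.266% ± 0.0239 of CPEB4 RIP counts, 0.368% ± 0.0320 of IgG RIP counts and 0.313% ± 0.0582 of input counts (SD, n = 2 each). CPEB4 RIP replicate 1 (0.283%) and input replicate 2 (0.271%) overlapped. No test of these shares was run, and the smallest two-sided p that an exact permutation test of 2 against 2 allows is 0.333. The share is of reads, so longer messages weigh more in it. Fos alone made up much of each sum. Of 2969 and 2725 summed CPM in CPEB4 RIP, Fos held 1358 and 1318. It held 2322 and 2108 of 3761 and 3715 in IgG RIP, and 2054 and 1707 of 3138 and 2633 in input. The order of the groups therefore need not hold for the members other than Fos.

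**Figure D4:**
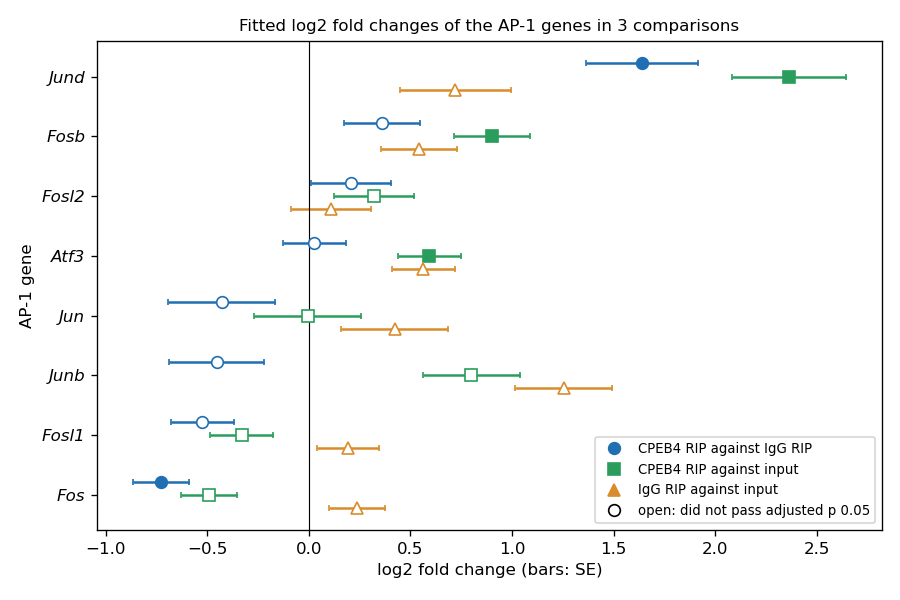
Fitted log2 fold change of each AP-1 gene in 3 comparisons, with SE as bars and filled points for an adjusted p under 0.05, ordered by the change in CPEB4 RIP against IgG RIP. Jund lies to the right in both comparisons with CPEB4 RIP (1.64 and 2.36), Fos lies to the left in both (-0.73 and -0.49), and Junb is negative over IgG RIP (-0.45) and positive over input (0.80).

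The comparison of IgG RIP with input measures what a nonspecific antibody recovers. In edgeR's quasi-likelihood test 0 of the 8 members passed, as did 0 of all genes tested (0%). At an unadjusted p under 0.05 there were 4 members, Junb, Atf3, Fosb and Jund, and 2550 genes (14.1%), and the DESeq2 Wald test called 706 genes and 2 members, Junb and Atf3. Junb had means of 451.9 ± 68.4 CPM with IgG and 189.4 ± 62.7 CPM for input (SD, n = 2 each), or 1.25 on the log2 scale (SE 0.24, adjusted p = 0.199). With each of the 6 libraries left out in turn, Junb ranged from 0.82 to 1.52. It stood at 1.27 without IgG RIP replicate 1 and at 1.01 without replicate 2. For Atf3 the value was 0.56 (SE 0.15, adjusted p = 0.214), for Jund 0.72 (SE 0.27, 0.307) and for Fosb 0.54 (SE 0.19, 0.269). Jund stood at 0.90 without IgG RIP replicate 1, at 0.25 without replicate 2 and at 0.36 without input replicate 2. Without IgG RIP replicate 2 Fosb stood at 0.62 and Atf3 at 0.59. Without replicate 1 they stood at 0.25 and 0.34, while without input replicate 2 Fosb stood at 0.31. Some members passed without an IgG RIP replicate, as did many of all genes tested, against 0 with all 6 libraries. The other members lay between 0.11 (Fosl2) and 0.42 (Jun), with adjusted p of 0.499 to 0.875. The libraries lay above input without overlap for 6 members (21.4% of all genes), below it for 0 (20.7%) and apart either way for 6 (42.0%). All 8 fitted values were above 0, with a median of 0.48 beside 0.05 for all genes tested. These values share the IgG RIP and input libraries with the comparisons above.

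Within the family the profiles over the 6 libraries were compared by the root mean square difference of log2 CPM, each gene centred on its own mean. Fos and Fosl1 were the most alike (0.15), followed by Fosb and Atf3 (0.16), and Fos and Jund the least (1.28). Among 6999 genes with a mean of at least 10 CPM, the 5 nearest to Fos were the glycolytic enzyme gene Pkm (0.05), Xpnpep1 (0.05), the actin-binding protein gene Cttn (0.05), Tti2 (0.06) and the circadian repressor gene Nr1d1 (0.06). Their log2 fold changes over IgG RIP lay between -0.77 (Cttn) and -0.65 (Pkm), a direction that the choice by profile fixes. The nearest to Jund was Pgrmc2, a membrane-bound heme-binding protein gene, at the larger distance of 0.18. Its values of 1.54 over IgG RIP and 2.05 over input were likewise fixed by the choice. These distances are not scaled to a gene's own root mean square about its mean, which was 1.03 for Jund and 0.31 for Fos. Single nearest genes were Fkbp5 for Fosb (0.07), Peg12 for Fosl1 (0.02), Bcl2l13 for Fosl2 (0.04), Slc7a2 for Jun (0.09), Xrcc1 for Junb (0.16) and Hspg2 for Atf3 (0.05).

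Other bZIP genes, whose products can pair with AP-1 proteins or bind related elements, had 3 of 25 members higher and 0 lower over IgG RIP, and 7 higher and 1 lower over input. Those above IgG RIP were the stress factor Atf4 (1.05), its relative Atf5 (1.08) and the small Maf protein gene Maff (1.04), with adjusted p of 0.00935, 0.0194 and 0.0152 in edgeR. Maff had means of 204 ± 3.54 CPM with the CPEB4 antibody, 99.5 ± 14.6 with IgG and 56.4 ± 3.51 for input (SD, n = 2 each). The list's median was 0.19 over IgG RIP and 0.53 over input, beside -0.07 and -0.06 for all genes tested. Of all genes tested, 4.79% were higher and 3.42% lower over IgG RIP, and 8.0% and 4.70% over input. These shares and medians of all genes apply equally to the lists that follow.

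Kinases and cofactors that act upstream of AP-1 had 5 of 30 members higher and 1 lower over IgG RIP, with a median of 0.34, and 7 higher and 1 lower over input, with a median of 0.43. The lower gene was Map3k1 (-1.28, SE 0.23, adjusted p = 0.0201), a kinase at the head of the JNK cascade, with means of 27.8 ± 0.00735 and 67.3 ± 19.1 CPM (SD, n = 2 each). Rps6ka3, a ribosomal S6 kinase downstream of ERK, rose by 0.91 (adjusted p = 0.0225), and Mapk9, which encodes a JNK kinase, rose by 1.65 (0.0315). The ERK kinase gene Mapk3 (1.44), Map3k7 (0.97) and the ubiquitin ligase gene Cop1 (1.33), chosen with their values in view, were higher as well. COP1 is known to direct Jun for degradation.

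Other immediate early genes had both directions, with 4 of 32 higher and 6 lower over IgG RIP (median -0.11) and 10 higher and 7 lower over input (median 0.21). The smallest p over IgG RIP belonged to the MAP kinase phosphatase gene Dusp1 (-1.11), the growth factor response gene Myc (-1.28) and Klf4 (1.04). The others, given after their values were seen, were the nuclear ERK phosphatase gene Dusp5 (1.40), the GTPase gene Rhob (1.02) and Csrnp1 (1.45) among the higher, and Egr2 (-1.22), Ier2 (-0.83), the phosphatase regulator gene Ppp1r15a (-0.83) and the matrix protein gene Ccn1 (-1.12) among the lower. Egr2 had means of 75.8 ± 1.82 CPM with the CPEB4 antibody and 177 ± 36.3 with IgG, and Csrnp1 of 274 ± 26.2 and 100.3 ± 45.9 (SD, n = 2 each).

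Factors that bind AU-rich elements, which shorten the life of immediate early messages, had 2 of 14 members higher and 0 lower over IgG RIP, namely Zfp36l2 (1.25, adjusted p = 0.0233) and Hnrnpd (0.79, adjusted p = 0.033). Over input 6 were higher and 0 lower, and the medians were -0.15 and 0.57. Genes reported as AP-1 targets had 0 of 26 higher and 2 lower over IgG RIP, the autophagy receptor gene Sqstm1 (-0.95, adjusted p = 0.00935) and the urokinase receptor gene Plaur (-0.59, adjusted p = 0.0417), and 2 higher and 2 lower over input (medians 0.07 and 0.37). Heat shock and chaperone genes, which respond to tissue dissociation together with AP-1 genes, had 0 of 14 higher and 8 lower over IgG RIP, with a median of -0.79. Over input 2 were higher and 3 lower, with a median of -0.36. The smallest p over IgG RIP belonged to Hspa5 (-1.53), Hspa8 (-1.27) and Hsp90aa1 (-0.95), and the inducible Hspa1a, given after its value was seen, was at -0.92 (473 ± 60.5 CPM against 896 ± 17.1). In none of these 6 lists did a gene pass between IgG RIP and input, where no gene passed at all in edgeR. Cpeb4 itself was at 16.5 and 14.9 CPM in the CPEB4 RIP libraries, 11.0 and 30.7 in those of IgG RIP and 13.2 and 13.6 in those of input, and did not pass over IgG RIP (-0.41, adjusted p = 0.578).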

How the data were processed

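The submitters' processing notes name HISAT2, featureCounts and mm10; versions, annotation, strand and the handling of reads with several matches are not given in the sources used. Raw counts per gene were deposited for the 6 libraries, without normalization. The deposited FPKM table holds the same counts divided by a length per gene and a constant per library whose basis the sources do not state. Without molecular identifiers, depth speaks to counting error only.

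The count analysis used edgeR 4.0.16 (R 4.3.3). Genes passed filterByExpr (minimum count 10, minimum total 15), libraries were scaled by TMM, and a quasi-likelihood model by group, without covariates, took all 6 libraries (3 residual degrees of freedom). Tests were two-sided, with Benjamini-Hochberg adjustment over all 18054 genes tested and a threshold of 0.05. CPM carry the TMM factors, and SE is the absolute log2 fold change over the square root of F. The fit was tested on simulated data. Symbols were matched to RefSeq on GRCm38.p6, and 2 listed genes through synonyms.

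The members and lists were chosen with earlier results of these data known. Named genes were the members, up to 3 genes per list with the smallest p over IgG RIP, 5 marker or target genes, and the nearest profiles; any other gene named was picked with its values known. Alternatives were scaling by library size alone or by DESeq2 size factors, leaving out mitochondrial genome genes, testing without the low-count filter or from a mean count of 20, DESeq2's Wald test (1.42.0), only the libraries compared, a replicate block, a gene length offset (loess, span 0.3), limma 3.58.1 on log2(FPKM + 1) and log2(FPKM + 0.1), and each library left out in turn.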

Additional observations from a re-analysis of the deposited data

How the results depend on the processing

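The 17 alternatives of each member's 3 fold changes mostly kept sign and side of the threshold: over IgG RIP 119 values did, 9 lost and 5 gained a call; over input 96, 15 and 16; for IgG RIP against input 123, 0 and 8. Genes called over IgG RIP went from 1482 to 2428 with no low-count filter, 2892 in DESeq2's Wald test, 973 in the 4 libraries compared and 0 with the gene length offset, where 0 members passed; limma on log2(FPKM + 0.1) called 1 member in place of 2. Over input 2294 became 3479 (DESeq2), 2615 (replicate block) and 661 (length offset) of 18054 genes, and 7340 of 16966 in the 4 libraries. The 3 members called became 5 in DESeq2, in the 4 libraries and with the replicate block. Calls rose among all genes in each of these fits as well. For IgG RIP against input 0 became 457 (no filter), 706 (DESeq2), 25 (replicate block), and 1 and 5 (limma with pseudocounts of 1 and 0.1), with 1 member called without the filter and 2 in DESeq2. The cause of these differences was not tested. Leaving out a library gave 0 to 7710, 117 to 7966 and 0 to 6657 genes, and 0 to 3, 1 to 5 and 0 to 3 members, in the same order; the lone library of a group was assumed to vary like the others. Over IgG RIP the genes called were 204 and 0 without CPEB4 RIP replicate 1 or 2, 970 and 972 without input replicate 1 or 2, and 7710 and 7405 without IgG RIP replicate 1 or 2. Over input they were 650, 117, 623, 756, 7966 and 7942 in that order, and between IgG RIP and input 6657 and 1739 without IgG RIP replicate 1 or 2 and 0 otherwise.

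Some values near 0 changed sign. Atf3 over IgG RIP was -0.0577 with library size alone, -0.0537 with a mean count of at least 20 and -0.14 with the length offset. Jun over input was 0.10 with no filter, 0.0059 with the replicate block, 0.19 with the length offset, and 0.0253 and 0.027 in limma (-0.28 to 0.39 with a library left out). Fosl2 over input in IgG RIP was -0.0312 with library size alone (-0.24 to 0.22 with a library left out), and there Fos ranged from -0.0146 to 0.27 and Jun from -0.0049 to 0.68. With library size alone, the median of all genes over input went from -0.056 to -0.273, and the share of calls that were higher from 63% to 43.7%, and over IgG RIP from 58.3% to 46.8%; without mitochondrial genome genes the latter was 66.4%. The AP-1 share of counts in CPEB4 RIP was 0.296% without mitochondrial genome and ribosomal protein genes. Same-numbered libraries share only a number: their deviations from the group means correlated at 0.133 (IgG and CPEB4 RIP), 0.07 (input and IgG RIP) and -0.016 (input and CPEB4 RIP). With the replicate block over input, Junb (0.82, adjusted p = 0.046) and Fos (-0.48, 0.0142) passed. The smallest member count was 263 (Jund, input replicate 2).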
